A study of Mus musculus with 32 samples.

Results

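The genes described here are 7 that encode cell surface proteins used to mark or sort neural stem cells and their neighbours: Prom1, Cd24a, Cd9, Cd81, Vcam1, Cd44 and Cd47. They were chosen by gene symbol, and all 7 were in the table, as 8 of its 39011 lines, among 38740 symbols in all. The libraries were made from subventricular zone tissue of mice at postnatal day 21: 4 libraries of 10 cells each (pools 1 to 4) and 28 libraries of 1 cell each (cells 1 to 28). The labels give no strain, sex, genotype, treatment or animal, they do not say how the cells were picked, and the series' design text calls the tissue adult. By its title the study was about dormant neural stem cells, and the question taken here is which cells carried each surface marker, alone or with the others.

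The subventricular zone lines the lateral ventricle and keeps making neurons after birth. Its stem cells resemble astrocytes and lie beside ciliated ependymal cells, blood vessels, oligodendrocytes, microglia and migrating neuroblasts. Antibodies to surface proteins are used to separate these neighbours, often in combinations, because few of the proteins belong to 1 cell type. Prom1 encodes prominin-1 (CD133), a protein of membrane protrusions and cilia, and Cd24a encodes CD24, a small anchored glycoprotein of neuroblasts and ependymal cells. Cd9 and Cd81 encode tetraspanins, which span the membrane and gather partners into patches. Vcam1 encodes an adhesion molecule for integrins, Cd44 a receptor for hyaluronan, and Cd47 a protein that restrains engulfment by phagocytes through its partner SIRPα.

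On build GRCm38 Prom1 lies on chromosome 5 (43993625 to 44102032, minus strand), Cd24a on chromosome 10 (43579169 to 43584262, plus strand) and Cd9 on chromosome 6 (125460266 to 125494791, minus strand). Cd81 lies on chromosome 7 (143052739 to 143067934, plus strand), Vcam1 on chromosome 3 (116110020 to 116129688, minus strand), Cd44 on chromosome 2 (102811141 to 102901665, minus strand) and Cd47 on chromosome 16 (49855618 to 49915010, plus strand). All 7 are protein-coding. Prom1, Cd9, Cd81, Vcam1 and Cd44 each overlap a transcript annotated on the opposite strand, and the strand setting of the counting is not given in the sources used here, so reads of such partners cannot be told apart.

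RefSeq promoter windows (GRCm38.p6, 250 bases before to 50 after a transcription start) were matched for 5 of the 7 genes. Those of Prom1 are shown because the co-expression below turns on it, and those of Cd9 and Cd81 because this pair was found together in more cells than any other pair. Each is written 5′ to 3′ on the gene's strand. Capitals mark 4 motifs on either strand. These are the GC box, GGGCGG, then the CCAAT box itself, a TATA box written TATAAA, and lastly CGGAAG, a core of ETS factor sites.
Prom1, upstream start, chr5:44101687-44101986, minus strand: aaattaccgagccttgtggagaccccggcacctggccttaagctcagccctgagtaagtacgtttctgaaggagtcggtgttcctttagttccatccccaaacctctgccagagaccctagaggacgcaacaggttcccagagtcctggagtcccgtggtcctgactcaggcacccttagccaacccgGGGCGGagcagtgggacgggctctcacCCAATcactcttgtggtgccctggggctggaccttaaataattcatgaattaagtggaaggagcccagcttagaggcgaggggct
Prom1, downstream start, chr5:44094719-44095018, minus strand: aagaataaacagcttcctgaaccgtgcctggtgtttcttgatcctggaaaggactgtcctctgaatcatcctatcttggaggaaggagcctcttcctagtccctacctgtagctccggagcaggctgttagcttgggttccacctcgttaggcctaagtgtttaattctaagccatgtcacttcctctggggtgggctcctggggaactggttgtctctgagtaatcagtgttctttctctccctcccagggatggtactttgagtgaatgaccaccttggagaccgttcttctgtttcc
Cd9, chr6:125494711-125495010, minus strand: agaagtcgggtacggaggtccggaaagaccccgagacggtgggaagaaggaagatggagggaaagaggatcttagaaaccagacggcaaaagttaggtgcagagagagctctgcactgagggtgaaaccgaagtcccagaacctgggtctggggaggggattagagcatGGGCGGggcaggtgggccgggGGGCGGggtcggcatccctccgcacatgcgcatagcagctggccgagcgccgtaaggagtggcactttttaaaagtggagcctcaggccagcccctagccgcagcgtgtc
Cd81, chr7:143052500-143052799, plus strand: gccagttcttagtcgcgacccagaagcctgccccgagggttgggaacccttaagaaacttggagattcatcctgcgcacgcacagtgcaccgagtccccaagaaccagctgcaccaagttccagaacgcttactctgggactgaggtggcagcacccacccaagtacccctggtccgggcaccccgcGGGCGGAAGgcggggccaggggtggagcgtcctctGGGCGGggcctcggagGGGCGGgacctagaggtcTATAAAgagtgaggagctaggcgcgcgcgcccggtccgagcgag

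The upstream Prom1 window held 1 GGGCGG and 1 CCAAT, and the downstream window held none of the 4 motifs. The Cd9 window held 2 GGGCGG. The Cd81 window held 3 GGGCGG, 1 TATAAA and 1 CGGAAG, the last overlapping a GGGCGG. Of 32851 windows of the same length, 35.7% held GGGCGG, 37.4% CCAAT, 13.6% TATAAA and 16.9% CGGAAG, so none of these motifs was rare. CpG dinucleotides numbered 10 and 4 in the Prom1 windows, 18 in that of Cd9 and 23 in that of Cd81, against a median of 7 over all windows.

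Values are FPKM, fragment numbers scaled to the transcript's length in kilobases and to the fragments mapped in the library, so levels of different genes can be set side by side per length. A gene is called found in a library at FPKM of at least 1. Pools had 10478 to 12870 genes found, and cells had 2107 to 10169 (median 4986). The depth per library could be read only roughly from the smallest steps of the values, at about 6200000 to 21000000 fragments in 19 of the 32 libraries, among them cells 1 to 17 and none of cells 18 to 28. The labels name no animal or culture, so the 28 cells were treated as 1 sample: each share of cells has a 95% interval (exact, Clopper-Pearson), which covers counting error only, and no p-value was made. An exact 0 can be a failed estimate and is given as listed at 0. Of 336 values of 12 genes typical of organs other than brain, 10 (2.98%) reached FPKM of 1, and these were values of Cyp2e1, Krt10, Cela1 and Ins2, the highest being Cela1, a pancreatic protease, at 135 FPKM in cell 12. Alb, Umod, Uox, Ckm, Prm1, Prm2, Pnlip and Sftpc were found in none of the cells. Among the 4 pools, Krt10 was found in 3, Ins2 and Cela1 in 2 each, and Cyp2e1 and Sftpc in 1 each. The highest was Cela1 at 24.8 FPKM in pool 4, and Sftpc was at 2.95 FPKM in pool 2.

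Cells 18 to 22 and cells 23 to 28 stood apart as libraries. Genes with at least 500 FPKM in 1 cell of a set and under 5% of that in its other cells were still above 0 in 98.7% and 97.6% of the other libraries of these sets, against 15.1% among cells 1 to 17. Results on the members are therefore also given under a limit, with a value put at 0 where it is below 2% of the gene's highest in that set, and over cells 1 to 17 alone.

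Each cell was described by its leading marker list, the one with the highest mean log2(FPKM + 1), and by 3 label genes: Flt1, a VEGF receptor of endothelial cells, Foxj1, a regulator of motile cilia, and Slc1a3, a glutamate transporter of astrocytes and astrocyte-like stem cells. Endothelial markers led 8 cells (cells 1, 2, 3, 6, 7, 8, 16 and 17), motile cilia markers led cells 9, 10 and 15, astrocyte markers cells 11 and 14, and oligodendrocyte markers cells 4, 12 and 13. Microglial markers led cells 18 to 21, neuroblast markers cells 22 to 28, and choroid plexus markers cell 5. The lead was narrow in cell 10, with 8 of 13 motile cilia markers at a mean of 3.14 beside 5 of 10 choroid plexus markers at 2.81. All 4 microglia-led cells held neuroblast markers too, 6, 9, 5 and 8 of 12 in cells 18 to 21, at means of 1.12, 2.13, 0.76 and 3.55. Microglial markers in turn were the second list in each of cells 22 to 28, and cell 22 held 11 of 12 at a mean of 3.04. Cell 3 had 12 of 12 endothelial markers at a mean of 9.20 beside 9 of 12 microglial markers at 5.94, and their part in its values was not tested. The leading list cannot tell astrocytes from astrocyte-like stem cells.

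**Figure D1:**
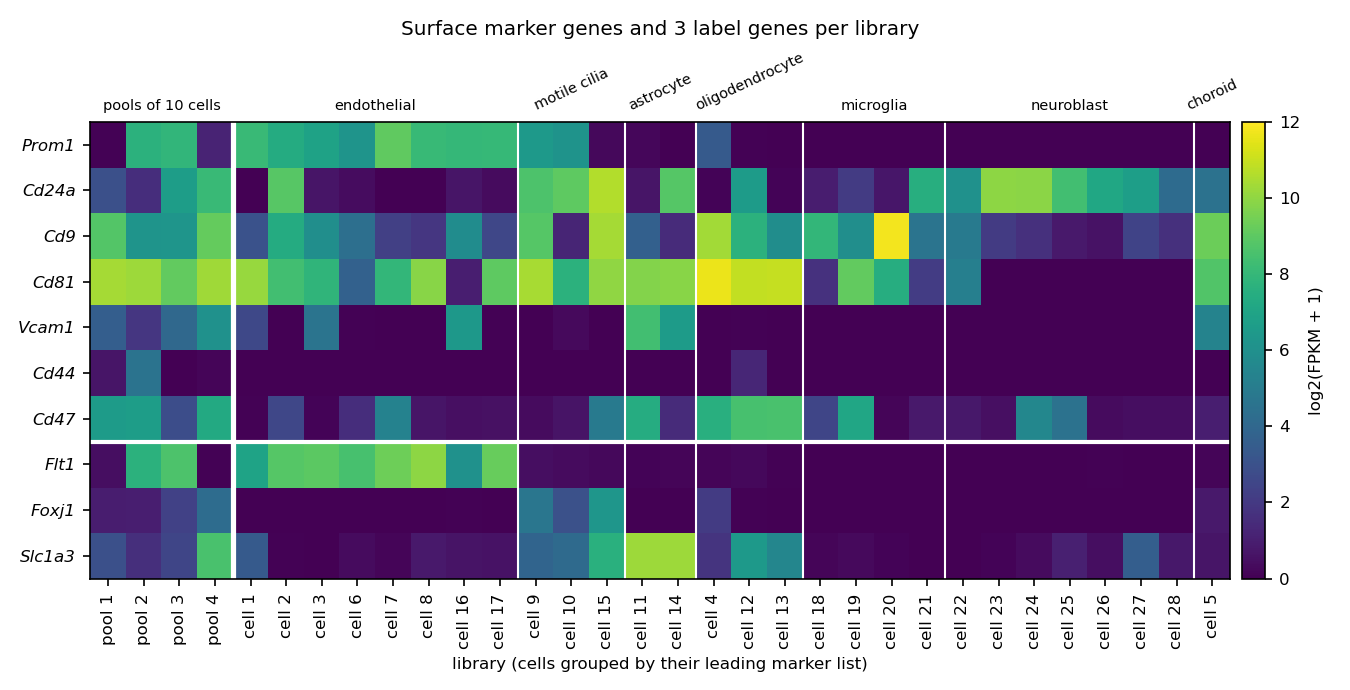
Colour gives log2(FPKM + 1) of the 7 surface marker genes (upper rows) and the label genes Flt1, Foxj1 and Slc1a3 (lower rows), with pools 1 to 4 at the left and the 28 cells grouped by leading marker list. Prom1 fills the 8 cells led by endothelial markers, Cd24a all 7 led by neuroblast markers, and Cd81 is at 0 in cells 23 to 28.

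Prom1 was found in 11 of 28 cells (39.3%, interval 21.5% to 59.4%), and most of them were endothelial by their markers. Its lowest, median and highest FPKM were 72.4, 258 and 534 in the 8 cells with Flt1, and 0, 0 and 86.4 in the 20 cells without Flt1. All 8 Flt1 cells had Prom1, and only cell 9 of the others reached into their range. The 3 Prom1 cells without Flt1 were cells 4, 9 and 10, at 9.41, 86.4 and 70.6 FPKM, and these were 3 of the 4 cells in which Foxj1 was found. In cell 4 Foxj1 (3.28 FPKM) was the only 1 of 13 motile cilia markers found. The other Foxj1 cell, cell 15, had the highest Foxj1 (78.1 FPKM) and only 0.210 FPKM of Prom1. Prom1 was thus below the threshold in 1 of the 3 cells led by motile cilia markers.

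Endothelial markers were few in the Prom1 cells without Flt1. Of 12 endothelial markers, cells 4, 9 and 10 had 4, 3 and 2, against 10 to 12 in each Flt1 cell. The mean log2(FPKM + 1) of the whole list was 0.82, 1.10 and 1.15 in them, against 6.83 in cell 1, the lowest of the Flt1 cells. Of the markers named here, chosen after their values were seen, Pecam1, an endothelial adhesion molecule, was at 1.41, 0.20 and 0.714 FPKM in these cells. Tek, an endothelial receptor, was at most 0.0171 FPKM in them, and Cdh5, the cadherin of endothelial junctions, was at most 0.0422 FPKM. Apart from Pecam1 in cell 4, the endothelial markers found in these cells are not named here, so the named ones show the low side of the list. Between the 11 cells with Prom1 and the rest there was a wide gap: the highest value among the 17 other cells was 0.210 FPKM, and Prom1 was listed at 0 in all 11 cells of the library sets and in 1 of cells 1 to 17. Over cells 1 to 17 alone, Prom1 was found in 64.7%.

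Prom1 and Flt1 split the cells alike, and were less closely related within the endothelial-led cells. Spearman's correlation over the 28 cells was 0.94 (Pearson 0.87 on log2(FPKM + 1)), and this value describes the split into cells with both genes and cells with little of either. Within the 8 Flt1 cells Spearman's correlation was 0.36 and Pearson's 0.019. Cell 16 had the lowest Flt1 of the 8, at 67.0 FPKM, beside 252 FPKM of Prom1, and cell 6 had the lowest Prom1, at 72.4 FPKM, beside 368 FPKM of Flt1.

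**Figure D2:**
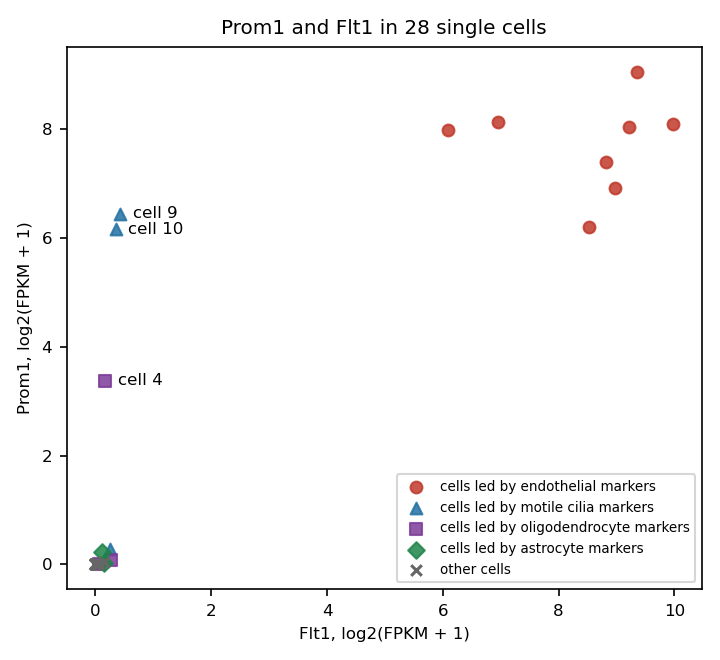
Prom1 against Flt1 in log2(FPKM + 1), 1 point per cell, with the shape giving the leading marker list. The 8 cells led by endothelial markers lie at the upper right, cells 4, 9 and 10 have Prom1 with Flt1 below 1 FPKM, and the other 17 cells lie near the origin.

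Prom1 with Slc1a3 is a combination by which neural stem cells have been sorted. It was found in 4 of 28 cells (14.3%, 4.03% to 32.7%): cell 1, led by endothelial markers, and cells 4, 9 and 10. In these cells Slc1a3 was at 9.67, 2.48, 13.5 and 16.7 FPKM. The cells with the most Slc1a3, cells 11 and 14 at 1197 FPKM each, had 0.172 and 0.0191 FPKM of Prom1. Of the 11 cells with Slc1a3, 7 had no Prom1 at this threshold. Only cell 4 had Prom1 and Slc1a3 without Flt1 and without Cd24a, and it was led by oligodendrocyte markers with 10 of 11 found.

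Cd24a was found in 16 cells (57.1%, 37.2% to 75.5%), with its highest value in ciliated cell 15 and the next in neuroblast-led cells 23 and 24. In the cells led by motile cilia markers it was at 394, 512 and 1549 FPKM (cells 9, 10 and 15). In the 7 cells led by neuroblast markers its lowest, median and highest FPKM were 17.6, 139 and 982, and it was found in every one. These 2 groups overlapped. In the cells led by endothelial markers Cd24a was below 1 FPKM in 7 of 8, and cell 2 stood alone among them at 470 FPKM.

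Cell 2 had 12 of 12 endothelial markers, 1 of 12 neuroblast markers and 0 of 13 motile cilia markers, and whether it held more than 1 cell was not tested. The cells led by astrocyte markers also differed, with 0.611 FPKM in cell 11 and 463 FPKM in cell 14. Cell 14 had 14 of 14 astrocyte markers and 3 of 12 neuroblast markers, against 14 of 14 and 0 of 12 in cell 11. The oligodendrocyte-led cells had 0.0843, 94.6 and 0.0867 FPKM (cells 4, 12 and 13), and choroid plexus-led cell 5 had 22.1 FPKM.

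Among the cells led by microglial markers Cd24a was at 0.969, 3.20, 0.663 and 182 FPKM (cells 18 to 21), so that only cell 21 was high. Neuroblast markers were found in all 4. By number cell 19 had more of them than cell 21. By mean log2(FPKM + 1), at 1.12, 2.13, 0.76 and 3.55 in cells 18 to 21, they stood in the same order as Cd24a. Their part in its values was not tested. Under the 2% limit cells 19 and 28 lost Cd24a and 14 cells kept it. Prom1 and Cd24a were found together in 3 cells, 2, 9 and 10. Cells 9 and 10 also had Foxj1, and cell 2 had Flt1. Cd24a without Prom1 was found in 13 cells and Prom1 without Cd24a in 8.

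Cd9 was the most widely found member, in 26 of 28 cells (92.9%, 76.5% to 99.1%) and in all of cells 1 to 17. Of 18856 symbols found in any cell, 1.35% were found in as many. This ranking depended on the threshold: at FPKM of at least 10 Cd81 was found in 67.9% of cells and Cd9 in 57.1%. The level of Cd9 spanned a wide range, with a lowest, median and highest of 0.506, 21.6 and 3555 FPKM. The high values were spread over cell types: microglia-led cell 20 at 3555 FPKM, ciliated cell 15 at 1331, oligodendrocyte-led cell 4 at 1298 and choroid plexus-led cell 5 at 641. In the 8 endothelial-led cells the lowest, median and highest were 2.69, 13.4 and 168 FPKM, and in the 7 neuroblast-led cells they were 0.506, 2.20 and 28.4 FPKM. Ordered by median the list-led groups ran from choroid plexus through motile cilia, oligodendrocyte, microglia, endothelial and astrocyte to neuroblast, and every pair of neighbours in that order overlapped.

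Cells led by the same list could differ widely in Cd9. The ciliated cells 9, 10 and 15 had 449, 1.33 and 1331 FPKM, and the oligodendrocyte-led cells 4, 12 and 13 had 1298, 210 and 57.8 FPKM. The microglia-led cells 18 to 21 had 248, 60.4, 3555 and 23.5 FPKM, and under the 2% limit cells 19 and 21, with cell 22 of the same set, were put at 0 beside the 3555 FPKM of cell 20. Cd9-ps, a processed pseudogene on chromosome 7 that shares sequence with Cd9, was found in 9 cells, all of them among cells 1 to 17. Its highest values were 64.0 and 60.8 FPKM in cells 15 and 4, the highest of cells 1 to 17 for Cd9 as well, and over cells 1 to 17 the Spearman correlation of the 2 lines was 0.93. Reads may have been divided between them, so the level of Cd9 is uncertain.

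Cd81 had the highest median level of the members, 241 FPKM over the 28 cells, and was found in 21 cells (75.0%, 55.1% to 89.3%). It was highest in the oligodendrocyte-led cells, at 3239, 1933 and 1993 FPKM (cells 4, 12 and 13), above every other cell. The ciliated cells 9, 10 and 15 had 1369, 209 and 1023 FPKM, and the astrocyte-led cells 11 and 14 had 872 and 921 FPKM. In the 8 endothelial-led cells the lowest, median and highest were 0.998, 290 and 1124 FPKM. Cell 16, at 0.998, was the only one of cells 1 to 17 under the threshold, and cell 6 was low too at 12.4 FPKM.

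Cd81 was listed at 0 in every one of cells 23 to 28, all led by neuroblast markers. Of 1203 symbols found in at least as many of cells 1 to 17 as Cd81 (16 cells), 10, or 0.831%, were listed at 0 in all 6 of these libraries. The neuroblast-led cell of the other set, cell 22, had 35.4 FPKM, and it kept this value under the 2% limit. Cell 22 also held 11 of 12 microglial markers at a mean of 3.04, and their part in its Cd81 was not tested. Cells 23 to 28 form 1 library set as well as most of the neuroblast-led cells, and for Cd81 the set cannot be told apart from the type of cell. The microglia-led cells 18 to 21 had 2.31, 558, 178 and 3.42 FPKM, and cells 18 and 21 fell below the limit.

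Vcam1 was found in 6 of 28 cells (21.4%, 8.30% to 41.0%) and was listed at 0 in all 11 cells of the library sets. Both astrocyte-led cells had it, at 325 and 93.8 FPKM (cells 11 and 14), and these were the highest values. The other 4 were endothelial-led cells 1, 3 and 16, at 5.04, 23.9 and 84.5 FPKM, and choroid plexus-led cell 5, at 40.6 FPKM. The remaining 5 endothelial-led cells had at most 0.0502 FPKM. Ciliated and oligodendrocyte-led cells had at most 0.233 FPKM. Vcam1 and Slc1a3 were found together in cells 1, 11 and 14.

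Vcam1 and Prom1 were found together in 3 cells, all endothelial-led (cells 1, 3 and 16), and none of the 4 Foxj1 cells had Vcam1. Egfr, a growth factor receptor that marks dividing progenitors, reached the threshold in 3 cells, at 1.05, 9.02 and 16.9 FPKM in cells 5, 11 and 14. All 3 had Vcam1 and none had Prom1. Egfr was singled out after its values were seen.

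Cd44 was found in 1 of 28 cells (3.57%, 0.0904% to 18.3%), oligodendrocyte-led cell 12, at 1.41 FPKM. It was listed at 0 in 25 cells, and cells 14 and 15 had 0.0263 and 0.0161 FPKM. A higher share of cells with little Cd44 may have been missed, and the part of depth in this was not tested.

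Cd47 was found in 14 cells (50%, 30.6% to 69.4%). It was highest in the oligodendrocyte-led cells, at 190, 368 and 371 FPKM (cells 4, 12 and 13), above every other cell, though cell 11 was close. The astrocyte-led cells 11 and 14 had 172 and 1.78 FPKM, and the microglia-led cells 18 to 21 had 4.73, 136, 0.109 and 0.739 FPKM. In the 8 endothelial-led cells the lowest, median and highest were 0.0429, 0.518 and 39.5 FPKM, and in the 7 neuroblast-led cells 0.286, 0.404 and 45.9 FPKM. Oligodendrocyte-led cells thus had the highest level of Cd81 and of Cd47 alike, with no overlap with the next group in either order.

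The Cd47 value is the sum of 2 lines with this symbol. One spans the gene, and the other, ENSMUSG00000079488 (chromosome 16, 49913193 to 49915008), covers only its 3′ end and is not in the annotation used here. The line that spans the gene was found in 9 cells, and the short line in 7. The 39.5 FPKM of cell 7 and the 22.4 FPKM of cell 25 came almost wholly from the short line, whereas the values of cells 12 and 13 came from the line that spans the gene. Levels of Cd47 in cells 6, 7, 18 and 25, which rest on the short line, are therefore uncertain. Cell 5 reached its 1.02 FPKM only as a sum, of 0.253 FPKM on the line that spans the gene and 0.768 FPKM on the short one, so its place among the cells with Cd47, with 5 members and with Vcam1 and Cd47 together is uncertain too.

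The members formed 17 different combinations over the 28 cells. No cell had all 7 and none had 6; cells 2, 5, 12 and 14 had 5 each, 10 cells had 4, 8 had 3, 5 had 2, and cell 26 had Cd24a alone. The median was 4 members per cell in cells 1 to 17 and 2 in cells 18 to 28. In all, 95 of 196 values of the members (48.5%) reached FPKM of 1. Of the 18856 symbols found in any cell, 27.2% were found in at least as many cells as Prom1. The share was 14.6% for Cd24a, 1.35% for Cd9, 7.22% for Cd81, 50.1% for Vcam1, 100% for Cd44 and 18.9% for Cd47.

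Of the 21 pairs, Cd9 and Cd81 were found together in the most cells, 21, which were all the cells with Cd81. These were the most widely found members, in 26 and 21 of 28 cells, so a large overlap follows from their breadth. Cd9 was likewise found in every cell with Prom1 (11 cells) and with Vcam1 (6 cells). All of those were among cells 1 to 17, every one of which had Cd9, so this sharing was fixed by its breadth. Prom1 and Cd81 shared 10 of the 11 Prom1 cells, the exception being cell 16. Cd81 was found in all of cells 1 to 17 but that one, so the overlap could not have been smaller and follows from its breadth. Prom1 and Cd47 shared 4 cells, 2, 4, 6 and 7, and Prom1 and Cd44 shared none, for which the exact interval reaches 12.3%. Cd44 was found in only 1 cell, so the number shared could not exceed 1 and says little. Cd24a and Vcam1 shared cells 5 and 14 only.

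Levels of the members went together only loosely from cell to cell, and values within the library sets moved the figures. Over 28 cells the Spearman correlations of the 21 pairs had a median of 0.13 and ran from -0.44, for Prom1 and Cd24a, to 0.49, for Cd9 and Cd81. Over cells 1 to 17 alone 8 of the 21 had the other sign. The correlation of Prom1 and Cd81 was 0.47 over 28 cells and -0.38 over cells 1 to 17, and that of Prom1 and Vcam1 0.42 and -0.30. Prom1 and Vcam1 were listed at 0 in all of cells 18 to 28, and Cd81 in 6 of them. That of Prom1 and Cd24a was -0.44 and -0.47, and that of Cd9 and Cd81 0.49 and 0.37. The cells differ in depth and in library set, and these values are descriptions.

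**Figure D3:**
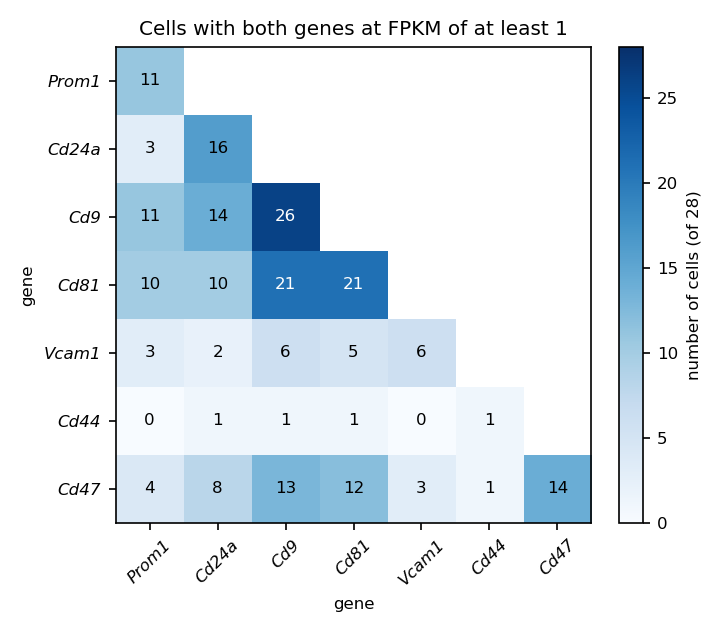
Number of cells, of 28, in which both genes reached FPKM of 1; the diagonal gives the cells with each gene. Cd9 and Cd81 share 21 cells, Prom1 shares 11 with Cd9 and 3 with Cd24a, and Cd44 was found in 1 cell.

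Among 10711 other symbols found in at least 5 cells, the 10 whose level over the 28 cells was most like that of Prom1 were Esam, Gsta4, Fn1, Itm2a, Flt1, Slco1a4, Ltbp4, Mfsd2a, Lmo2 and Col4a1, with Spearman correlations of 0.94 to 0.97. Esam, an adhesion molecule of endothelial junctions, led with 0.97 and was found in 8 cells, as was Fn1, which encodes fibronectin. Over cells 1 to 17, 4 of these 10 were again among the 10 most alike, among them Flt1 with 0.90 and Col4a1, a collagen of basement membranes, with 0.89.

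The other members had looser counterparts. The 3 genes most like Cd24a were Gm15352, Zfp119a and Atp1b1 (0.72 to 0.75), those most like Cd9 were Fkbp2, Dnajc13 and Cd9-ps (0.79 to 0.85), and those most like Cd81 were Canx, Pla2g16 and Wdr37 (0.79 to 0.83). For Vcam1 they were Hsd17b12, Slc38a3 and Cd59a (0.78 to 0.80), and for Cd47 Gpr137b-ps, Gnl3l and Dhcr7 (0.68 to 0.69). Over cells 1 to 17 those of Vcam1, which was listed at 0 in all of cells 18 to 28, had correlations of 0.47, 0.58 and 0.47. Those of Cd81 had 0.60, 0.71 and 0.81, those of Cd9 0.82, 0.76 and 0.93, and those of Cd47 0.91, 0.74 and 0.72. Gm15352 and Atp1b1 had 0.78 and 0.83 with Cd24a, and Zfp119a was found in too few of these cells. Metrn, Gm17114 and Hist2h3b were listed for Cd44 (0.65 to 0.66), an order that rests on 3 cells with Cd44 above 0.

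Other surface proteins of stem cells and progenitors were read from a list of 12 genes, of which 9 were found in a cell and Fut4, Cxcr4 and Prom2 in none. Prom2, the paralog of Prom1, and Fut4, the enzyme that makes the LewisX epitope, were listed at 0 in every cell and pool. The most widely found were Itgb1, an integrin subunit, in 22 cells, Ncam1, which carries polysialic acid on neuroblasts, in 15, Itga6, an integrin subunit that binds laminin, in 14, and Notch1 in 12. Itga6 was found in 8 of the 11 Prom1 cells and was highest in endothelial-led cell 6, at 713 FPKM. Notch1 was also found in 8 of the 11 Prom1 cells. Ncam1 was found in 3 of the 11, cells 4, 9 and 10, the same 3 that lacked Flt1.

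All 12 other tetraspanins were found in a cell. Tspan3 was found in 23 cells, Tspan7 in 19, Cd82 in 17 and Cd63 in 15, each in fewer than the 26 with Cd9. Cd63, a tetraspanin of late endosomes, had its highest value in cell 20, at 4880 FPKM, which was also the cell with the most Cd9. Over the list 41.1% of values reached FPKM of 1, against 48.5% for the 7 members, 25.6% for the other stem cell surface genes and 24.5% for the ligands and partners.

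Ligands and partners of the members were a list of 15 genes, of which 9 were found in a cell. Rdx, Ezr and Msn, which encode proteins that link CD44 and other surface proteins to actin, were found in 24, 23 and 12 cells. Sirpa, which encodes the receptor of CD47, was found in 10 cells and was highest in microglia-led cell 20, at 2197 FPKM. Igsf8, a partner of CD9 and CD81, was found in 13 cells, Ifitm3, an interferon-induced membrane protein, in 12, and Ptgfrn, another tetraspanin partner, in 4. Itga4, the integrin subunit that pairs with Itgb1 to bind VCAM1, was found in cells 3, 5, 6 and 13, at 1.29 to 2.55 FPKM. Thbs1, which encodes the CD47 ligand thrombospondin-1, was found in cell 5 alone, at 1.61 FPKM.

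Some partners were found in none of the cells. Has1, Has2 and Has3, which make hyaluronan, the ligand of CD44, were at most 0.0127 FPKM. Spp1, another ligand of CD44, was at most 0.0645 FPKM, and Selp and Siglecg, which encode receptors that bind CD24, were at most 0.862 FPKM. For a count of 0 of 28 cells the exact interval reaches 12.3%.

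The 4 pools held the members in unlike mixtures. Prom1 was at 0.0345, 211, 241 and 1.30 FPKM in pools 1 to 4, and Flt1 at 0.361, 211, 405 and 0.0332 FPKM. Pools 2 and 3, which were led by endothelial markers with 12 of 12 found, were thus the ones with much of both genes. Motile cilia markers numbered 7, 10, 12 and 10 of 13 in pools 1 to 4. They were the second list of pool 3, at a mean of 4.61, and their part in the Prom1 of the pools was not tested. Vcam1 was at 11, 2.72, 15.9 and 67.2 FPKM, highest in pool 4, which also had the most Slc1a3 (369 FPKM) and 14 of 14 astrocyte markers. Cd24a was at 6.52, 2.01, 103 and 282 FPKM, and Foxj1 at 0.952, 1.02, 4.02 and 18 FPKM, so that both were higher in pools 3 and 4 than in pools 1 and 2. In a pool, fewer cells of a type and less RNA per cell cannot be told apart.

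Cd9 was at 436, 72.7, 75.4 and 577 FPKM in pools 1 to 4, and Cd47 at 96.0, 102, 6.22 and 155 FPKM. Pools 1 and 4, led by oligodendrocyte markers, had the higher Cd9, and pool 1 also had 10 of 10 choroid plexus markers. The low Cd47 of pool 3 came almost wholly from the short line, at 5.96 FPKM. Cd81 varied least on the log2 scale, at 1346, 1208, 554 and 1265 FPKM. Cd44 was found only in pool 2, at 22.9 FPKM, against at most 0.601 in the others. Pool 2 was also the only one with Thbs1 (36.9 FPKM), Spp1 (2.10 FPKM) and Itga4 (2.40 FPKM) at FPKM of at least 1. Spp1 and Itga4 were below Sftpc, a gene typical of organs other than brain, which was at 2.95 FPKM in this pool. The pool had 12 of 12 microglial markers at a mean of 7.14 beside its 12 endothelial markers, and their part in its Cd44 was not tested.

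**Figure D4:**
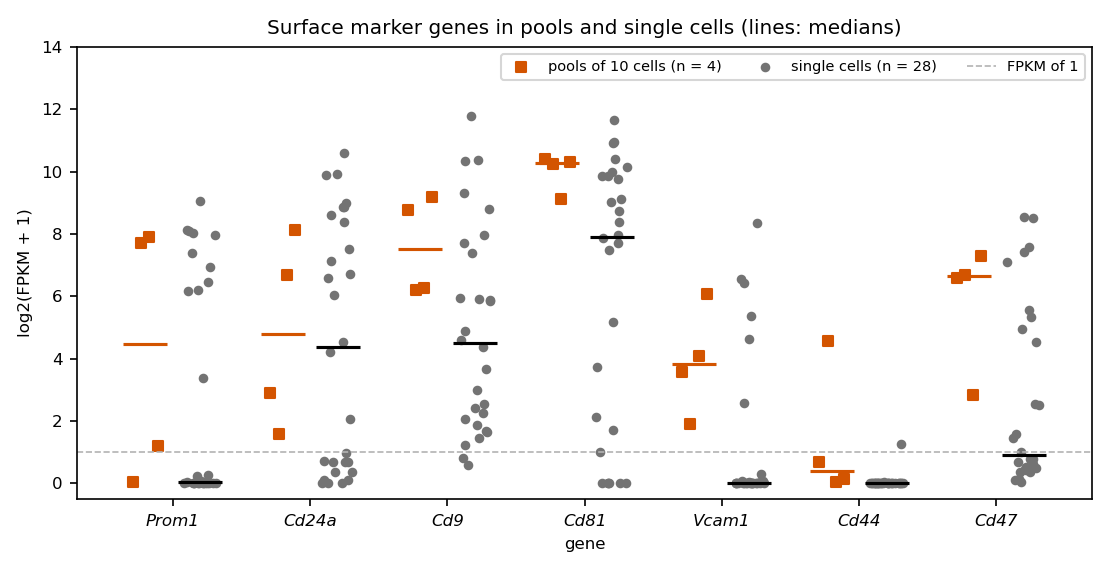
Level of each gene in log2(FPKM + 1), with the 4 pools (squares) left of the 28 cells (dots) and lines at the medians; the dashed line is FPKM of 1. Cd44 is above FPKM of 1 in 1 pool and 1 cell, and Prom1 falls into high and near-zero libraries in pools and cells alike.

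By ratios of mean FPKM, pools and cells differed by less than the SD over pools for 5 of the 7 genes. On log2((mean + 1)/(mean + 1)), Prom1 had 113 FPKM in pools and 76.1 in cells (0.57, SD over pools 4.18, n = 4). Cd24a had 98.2 FPKM in pools and 225 in cells (-1.19, SD 3.09), and Cd9 had 290.2 and 295 FPKM (-0.022, SD 1.59). Vcam1 had 24.2 FPKM in pools and 20.5 in cells (0.23, SD 1.73), and Cd47 had 89.7 and 49.8 FPKM (0.84, SD 2.02). The sign of 3 of these ratios depended on which libraries were used. Against cells 1 to 17 the ratio was -0.14 for Prom1, 0.19 for Cd9 and -0.46 for Vcam1. Without pool 3 it was -0.11 for Prom1, and without pool 4 it was -0.98 for Vcam1 and -2.57 for Cd24a. No test was made, since the cells have no replicate sample.

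The ratio of mean FPKM was larger than that SD for Cd81 and Cd44. The SD is over log2 ratios of single pools, so the ratio and the SD are unlike measures. Means of log2(FPKM + 1) differed by 1.31 for Cd44, below its SD. They differed by 2.73, 2.68 and 3.18 for Cd9, Vcam1 and Cd47, above theirs. Cd81 averaged 1093 FPKM in pools and 577 in cells (0.92, SD 0.60). Against cells 1 to 17, whose mean was 905 FPKM, it was 0.27. Cd44 averaged 5.90 FPKM in pools and 0.0517 in cells (2.71, SD 2.16), and without pool 2 the ratio was 0.24. At 2-fold or more, 1 of the 7 genes was higher in pools (Cd44) and 1 was lower (Cd24a), against 12.9% and 13.9% of the 19783 symbols found in any library. Without pool 2 none of the 7 was 2-fold higher, against 10.1% of the symbols, and without pool 3 there were 3, against 16.7%. None of the 7 was 2-fold lower without pool 1, against 15.4% of the symbols, or without pool 2, against 17.7%. By means of log2(FPKM + 1) Cd24a was higher in pools, by 0.41, on a scale where the median of all symbols was 0.95. The median ratio of the 7 genes was 0.57, against 0.064 over the 19783 symbols.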

How the data were processed

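Single cells and pools of 10 cells were profiled by RNA sequencing, and the authors deposited 1 table of FPKM per gene for the 32 libraries. TopHat 1.41 and Cufflinks 2.02 made these values, per the submitters' processing notes, which name build mm9. The loci in the table nevertheless overlap the GRCm38 positions of the same gene IDs in 99.7% of the 96.0% of IDs present in GENCODE M21, so GRCm38 coordinates are printed. Of the read layout, strand setting and annotation: not given in the sources used here. The table holds no counts, so depth was only estimated, from the smallest value steps of 2342 one-exon genes of at least 800 bases with an assumed fragment of 200 bases.

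Lines of 1 symbol were summed, which concerns Cd47 among the members, and 27 symbols turned into dates by a spreadsheet were restored. A gene counted as found at FPKM of at least 1. Logarithms are log2(FPKM + 1), so folds of low genes are understated. Pools and cells were compared by log2 ratios of mean FPKM + 1. No 2 libraries held identical values. No doublet caller was run. Computation used Python 3.11.15, pandas 2.3.3, numpy 2.4.6 and scipy 1.17.1. Simulated data were used to check the ratios, the search for the genes most alike and the 2% limit, and no other step. The ratios were checked there with a far smaller pseudocount than the one used for the results. No comparison had replicate samples on both sides, so no p-value is given, and exact intervals (95%) cover counting error only.

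The members and lists were chosen with earlier results of these data known. Named genes were the members, the 3 label genes, the 10 genes most like Prom1 and the 3 most like each other member, and, from every list, the 4 most widely found and any that no cell had; ligands and partners could each be named, and Egfr and 3 endothelial markers were added after their values were seen. Alternatives were other thresholds, pseudocounts, filters, scalings, the 2% limit, cells 1 to 17 alone, and each pool left out.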

Additional observations from a re-analysis of the deposited data

Results flagged for a closer look

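Among the 7 members in the 4 pools, 3 had a pool set far from the others, with a gap to the nearest pool over 0.829 of the whole range on log2(FPKM + 1). Chance flags about 1 in 20 such groups. Cd81 was lower in pool 3, at 554 FPKM, with a gap of 0.877 of the range on the log2 scale and 0.825 on FPKM, under the limit. Cd44 was higher in pool 2, at 22.9 FPKM, with a gap of 0.859 on the log2 scale and 0.975 on FPKM. Cd47 was lower in pool 3, at 6.22 FPKM, with a gap of 0.845 on the log2 scale and 0.604 on FPKM, under the limit.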

How the results depend on the processing

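Of 69 alternative values of the ratios of pools over cells, 9 had the other sign: 4 for Cd9 (0.19 in cells 1 to 17, 0.30 without pool 2 and without pool 3, 2.73 by means of log values), 2 for Prom1 (-0.14 in cells 1 to 17, -0.11 without pool 3), 2 for Vcam1 (-0.46 in cells 1 to 17, -0.98 without pool 4) and 1 for Cd24a. The share of cells with Prom1 was 64.7% in cells 1 to 17. The correlation of Prom1 with Cd9 was -0.088 by Pearson and -0.33 in cells 1 to 17, where those with Cd81, Vcam1 and Cd44 were -0.38, -0.30 and -0.48. That with Cd44 was -0.15 by Pearson, and that with Cd47 was 0.15 under the 2% limit. Cd44 was listed at 0 in 14 of cells 1 to 17, so its correlations rest on few cells. Members 2-fold higher in pools numbered 0 with a pseudocount of 10, where 2.37% of all symbols were. They numbered 0 among symbols found in at least 5 of 32 libraries, where 11.2% were, a filter that left out Cd44. There were 6 by means of log values, where 48.5% of all symbols were, and 2 with libraries rescaled to 1 sum, where 16.7% were. With a pool left out they ranged from 0 to 3, against 9.88% to 16.7% of the symbols. Members 2-fold lower numbered 0 by means of log values, where 1.3% of the symbols were, and 0 after rescaling, where 10.8% were. With a pool left out they ranged from 0 to 1, against 15.4% to 17.7% of the symbols. By means of log values the ratio of Cd24a was 0.41, where the median of all symbols shifted to 0.95, against 0.24 after rescaling. The cause was not tested. The 2 Cd47 lines taken alone, an alternative chosen after seeing the data, gave 9 and 7 cells. No paired analysis was possible because the numbers of cells and pools only name libraries and no result came from a test. Low genes can be missed, and the part of depth in this was not tested: Cd44 in particular cannot be called absent from a cell.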
